A study of Mus musculus with 18 samples.

Results

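The forkhead transcription factors were examined in 18 mouse medulloblastomas, tumours of the cerebellum, each hybridised to 1 Affymetrix mouse Gene ST 1.0 array. A gene was a member if its symbol was Fox followed by a letter and a number, with Foxm1 left out, and 42 of the 19938 genes measured with a single symbol met this rule. The groups were GFD-Smo;GFAP-cre (n = 4), NG-Smo;Atoh1-CreER (n = 4), GFI-Ptch (n = 4), GFD-Ptch (n = 2) and NG-Ptch (n = 4), and the first pair are shortened below to GFD-Smo and NG-Smo. What the subtype names NG, GFD and GFI stand for is not said in the labels, which also give no strain, age or allele. Each subtype of Smo tumour had its own Cre driver, so subtype and driver cannot be told apart. As background, GFAP-cre acts in neural stem cells and glial progenitors, and Atoh1-CreER is a tamoxifen-inducible Cre of granule neuron progenitors. GFI-Ptch replicate 4 is labelled as having progressed from another tumour and grown in an NSG female host, mice that lack lymphocytes, and is called the transplanted tumour. NG-Ptch replicates carry the numbers 1, 2, 4 and 5. The labels do not say that replicates came from separate animals, so the p-values measure the spread between these samples.

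Forkhead proteins share a winged-helix DNA-binding domain and are sorted by sequence into lettered subfamilies. FoxA proteins open closed chromatin and pattern the ventral midline of the neural tube, where Sonic hedgehog, the pathway driving Ptch and Smo tumours, is made and induces them. FoxO proteins carry growth factor signals: AKT phosphorylates them and they leave the nucleus. FoxP proteins repress transcription in neurons and lymphocytes, while FoxC, FoxD and FoxF proteins act largely in mesenchyme, meninges and vessel walls.

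Foxa2 and Foxd1 passed the test in more than 1 comparison and Foxr2 had the widest range over the arrays, and the 300 bases around their annotated starts are shown as the control regions of the genes on which the results turn. The sequences are RefSeq's on GRCm38.p6, mostly upstream of the start, in the direction of transcription, with each CG dinucleotide in capitals. For Foxa2, of whose windows the table holds 3, the one with the most CG dinucleotides is given.
Foxa2, chr2:148045899-148046198, minus strand: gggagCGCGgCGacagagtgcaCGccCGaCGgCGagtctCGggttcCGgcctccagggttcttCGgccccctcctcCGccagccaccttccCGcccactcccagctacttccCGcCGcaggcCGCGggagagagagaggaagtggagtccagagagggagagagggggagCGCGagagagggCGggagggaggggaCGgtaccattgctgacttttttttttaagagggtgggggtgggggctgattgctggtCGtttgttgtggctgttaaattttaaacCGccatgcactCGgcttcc
Foxd1, chr13:98353995-98354294, plus strand: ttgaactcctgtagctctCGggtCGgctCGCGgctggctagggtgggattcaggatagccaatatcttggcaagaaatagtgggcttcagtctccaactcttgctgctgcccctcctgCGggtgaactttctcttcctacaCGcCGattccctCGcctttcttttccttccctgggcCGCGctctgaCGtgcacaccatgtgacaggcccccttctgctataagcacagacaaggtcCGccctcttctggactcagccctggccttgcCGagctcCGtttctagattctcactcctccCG
Foxr2, chrX:153118538-153118837, plus strand: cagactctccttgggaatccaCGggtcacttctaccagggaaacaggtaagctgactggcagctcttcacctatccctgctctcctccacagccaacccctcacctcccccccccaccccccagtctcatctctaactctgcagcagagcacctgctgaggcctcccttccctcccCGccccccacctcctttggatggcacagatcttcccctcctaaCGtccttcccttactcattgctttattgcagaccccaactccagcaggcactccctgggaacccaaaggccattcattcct
The Foxa2 window shown held 23 CG dinucleotides, the Foxd1 window 15 and the Foxr2 window 3. The Foxa2 windows not shown held 13 and 12, fewer than the Foxd1 window. The table matched 28 of the 42 members with 33 windows, which had a median of 22 CG dinucleotides, against a median of 7 over all 32851 windows. The Foxr2 window had the fewest of the 33. The forkhead core GTAAACA, searched on both strands, was in the window of 1 member, Foxa1, and in 3.65% of all windows. The GLI core ACCACCC, likewise on both strands, was in that of 1 member, Foxd3, and in 4.61% of all windows.

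Values are log2 signals, and because probe sets differ in response, no gene's level is set against another's. A gene was taken as dim if the mean of its highest group was under 7.16, the 95th percentile of the same measure over 1015 olfactory receptor genes. By this bound 28 members were above it and 14 were dim. Over the 18 arrays, 5 of the 28 ranged by more than 2 log2 units, from 2.19 for Foxa2 through Foxp2, Foxd1 and Foxf2 to 5.92 for Foxr2. The other 23 ranged by 0.32 to 1.27. The heat map shows that these wide ranges lay in different arrays for different genes.

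**Figure D1:**
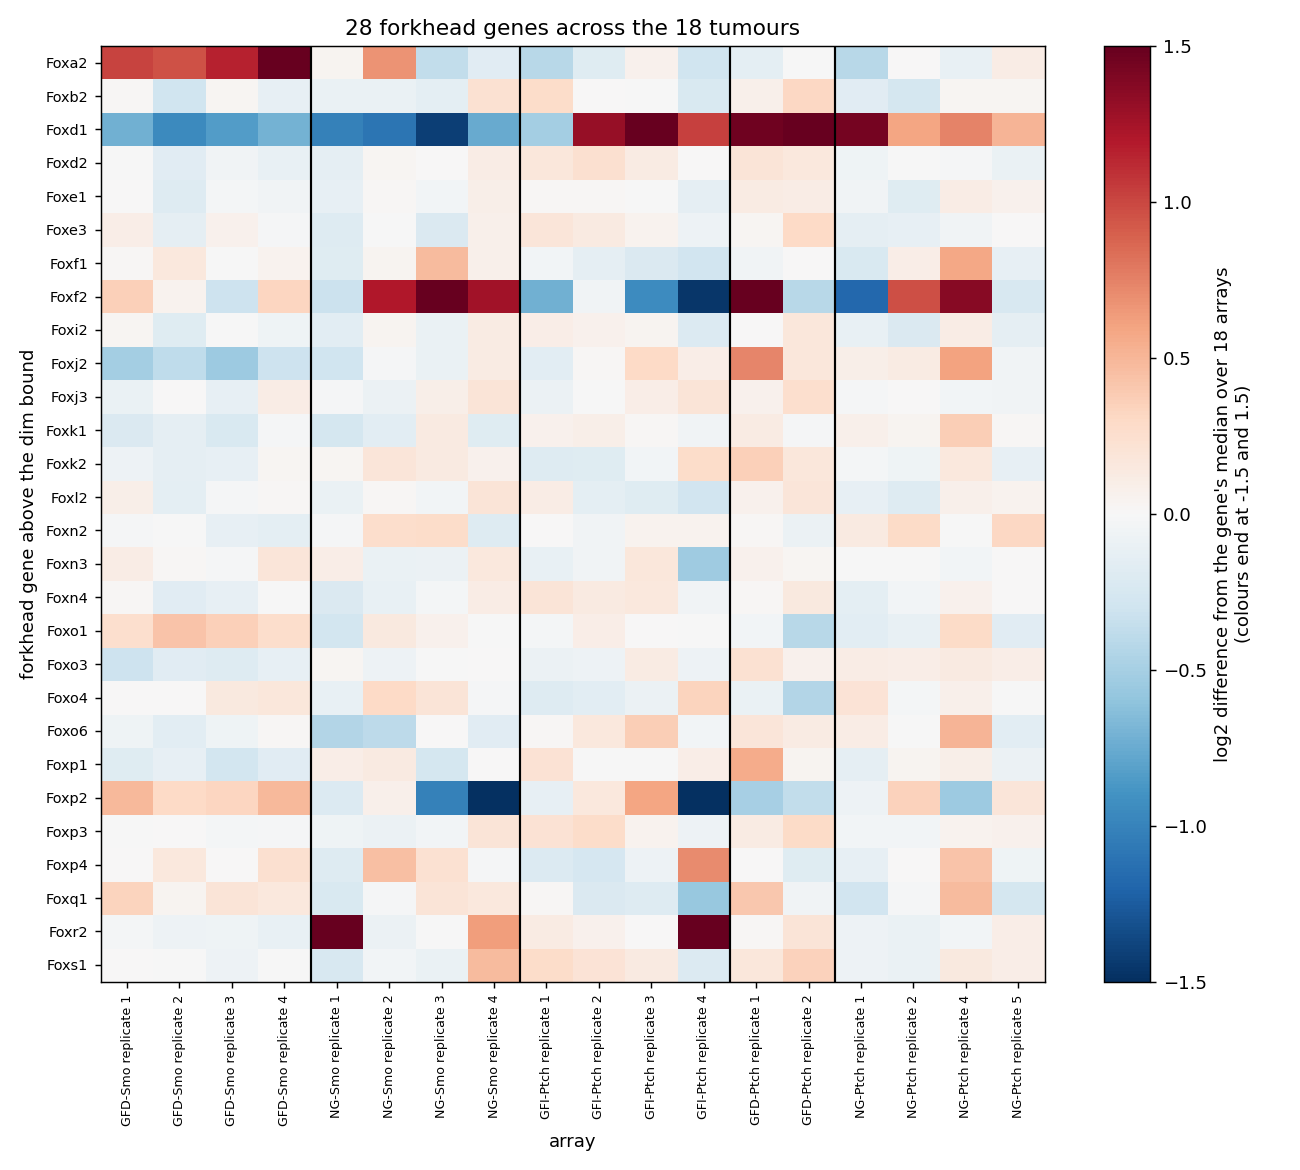
Difference of each of the 28 forkhead genes above the dim bound (rows) from its own median, on the log2 scale, in the 18 arrays (columns, with groups parted by black lines). Foxa2 was high in the 4 GFD-Smo arrays, Foxd1 was low in the 8 Smo arrays, and Foxr2 stood out in NG-Smo replicate 1 and GFI-Ptch replicate 4.

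Replicates correlated over all genes at 0.995 to 0.998 in GFD-Smo, 0.981 to 0.989 in NG-Smo, 0.970 to 0.992 in GFI-Ptch, 0.993 in GFD-Ptch and 0.993 to 0.996 in NG-Ptch. The mean of 13 granule neuron progenitor genes was 11.24 to 11.94 per array, well above the dim bound everywhere. Y-chromosome genes (Eif2s3y, Kdm5d, Uty) went against the gender label in GFD-Smo replicates 2 and 3 and in the transplanted tumour. They averaged 10.05 in GFD-Smo replicate 2, labelled female, against 5.48 in GFD-Smo replicate 3 and 5.37 in the transplanted tumour, both labelled male. The same average was 9.84 in both GFD-Ptch tumours and 5.40 to 5.47 in the NG-Ptch tumours. Between these groups subtype and sex therefore cannot be told apart. In GFD-Smo replicates 1, 3 and 4 it was 5.45 to 5.48, so GFD-Smo minus GFD-Ptch is largely a comparison across sex as well. Skeletal muscle genes averaged 9.10 in the transplanted tumour and 7.05 to 7.72 in the other arrays.

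Foxa2, the pioneer factor of the floor plate and of midbrain dopamine neurons, was the 1 member that passed the test between the Smo tumours. Its log2 level was 9.22, 9.15, 9.35 and 9.97 in GFD-Smo tumours, against 8.24, 8.88, 7.84 and 8.03 in NG-Smo tumours. Every GFD-Smo array lay above every NG-Smo array. Foxa2 rose 2.26-fold in GFD-Smo relative to NG-Smo tumours (log2 change 1.18, SE 0.21, 95% interval 0.73 to 1.62, limma adjusted p = 0.0031). Of all genes 5.31% passed this test, and of the members 1 of 42 did. At an unadjusted p under 0.05 there were 5 members, against 15.9% of all genes: Foxa2, Foxo1 and Foxp2 were higher, and Foxj2 and Foxo3 lower.

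The same GFD-Smo arrays, at 9.15 to 9.97, stood against 8.06 and 8.19 in GFD-Ptch tumours, and Foxa2 rose 2.46-fold (log2 change 1.30, SE 0.26, limma adjusted p = 0.00342). Both comparisons use the same GFD-Smo arrays, so they are not independent. In the remaining Ptch arrays Foxa2 was 7.79, 8.02, 8.27 and 7.90 in GFI-Ptch and 7.79, 8.21, 8.09 and 8.31 in NG-Ptch tumours. The 14 arrays outside GFD-Smo therefore shared a band of 7.79 to 8.88, and neighbouring group means within it lay closer than the larger of their SDs. The GFD minus NG change was larger in Smo than in Ptch tumours by 1.16 (SE 0.33), which missed the threshold (limma adjusted p = 0.066). By their pattern over the 18 arrays, the genes closest to Foxa2 were Ero1b (Pearson r = 0.956), Dsc2 (r = 0.935) and Eya4 (r = 0.932). These points share arrays and groups, and the correlations are a description.

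Astrocyte genes moved with the same groups: 6 of 10 rose in GFD-Smo relative to NG-Smo tumours (5.31% of all genes passed) and 9 of 10 relative to GFD-Ptch tumours (15.6% passed), with array means over the list of 10.99 to 11.10 in GFD-Smo and 8.42 to 10.30 elsewhere. Within GFD-Smo, replicate 4 had the highest Foxa2 (9.97) with an astrocyte mean of 11.02, inside the range of its group. The part of cell composition in the Foxa2 difference was not tested, and in bulk tumours fewer cells of a type and less RNA per cell cannot be told apart.

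**Figure D2:**
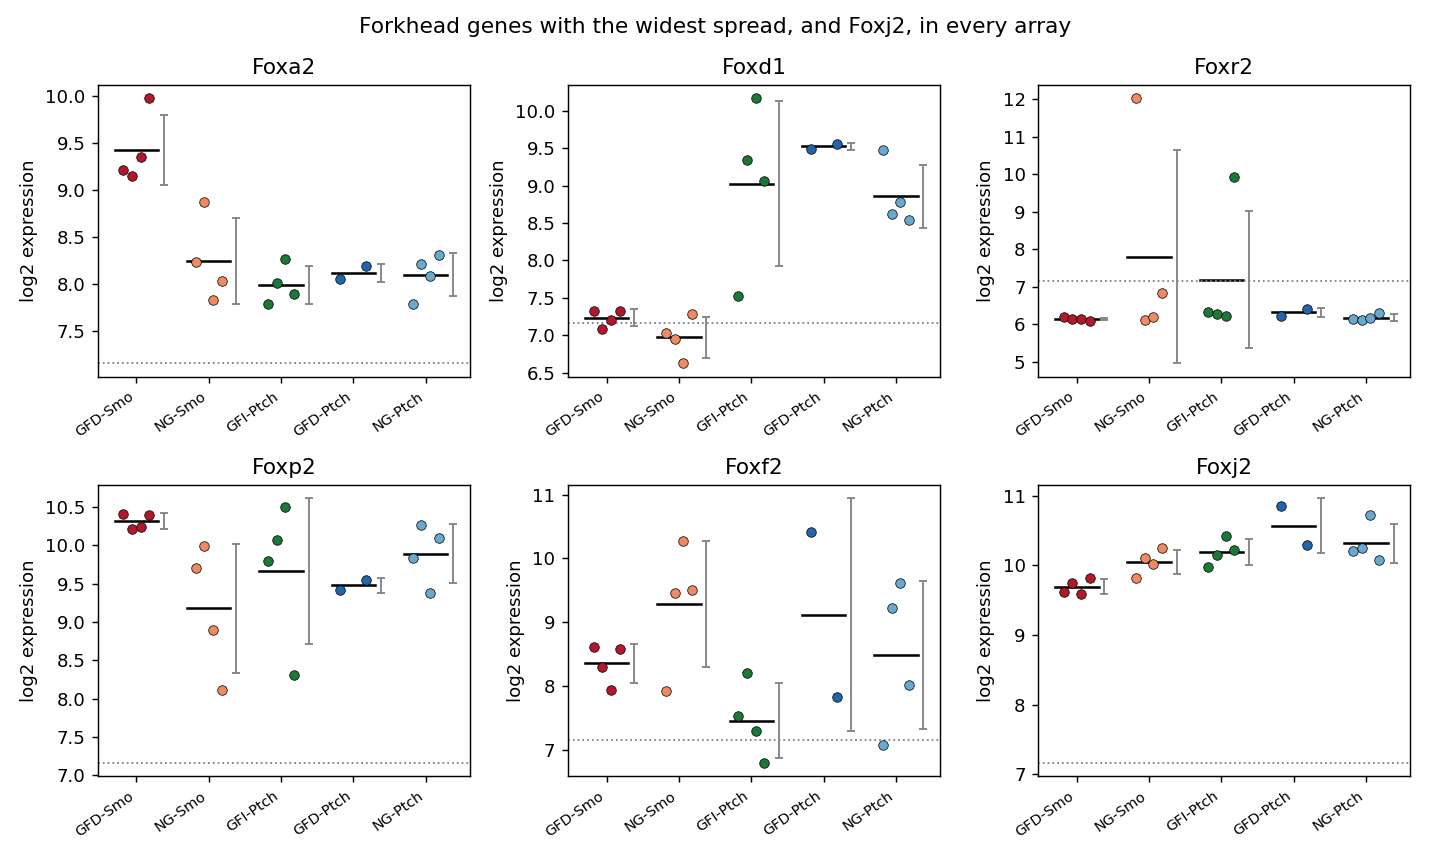
Log2 expression of 6 forkhead genes in every array, by group (points), with the group mean (black line), its SD (grey bar) and the dim bound of 7.16 (dotted line). Foxa2 in GFD-Smo lay above all other arrays, Foxd1 in the Smo groups lay near the dim bound, and Foxr2 was above the bound in only 2 arrays.

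Foxd1, a gene of the developing diencephalon, retina and kidney stroma, separated the Smo from the Ptch tumours. Its log2 level was 7.02, 6.94, 6.62 and 7.29 in NG-Smo tumours, against 9.47, 8.63, 8.78 and 8.55 in NG-Ptch tumours. It was 7.32, 7.09, 7.20 and 7.33 in GFD-Smo tumours, against 9.50 and 9.56 in GFD-Ptch tumours. The Smo arrays thus sat around the dim bound and no array of either pair overlapped. Foxd1 fell in NG-Smo relative to NG-Ptch tumours, where it was at least 3.24-fold lower with the NG-Smo mean of 6.97 set to the dim bound above it (fitted log2 change -1.89, SE 0.38, limma adjusted p = 0.0296), as the 1 member that passed of 42, against 1.04% of all genes. At an unadjusted p under 0.05 there were 4 members, Foxd1, Foxk1, Foxo3 and Foxo6, against 10.6% of all genes. Foxd1 also fell in GFD-Smo relative to GFD-Ptch tumours, to a level 4.90-fold lower (log2 change -2.29, SE 0.47, limma adjusted p = 0.00417).

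Among GFI-Ptch tumours Foxd1 ran from 7.53 in replicate 1 through 9.35 and 10.17 to 9.06 in the transplanted tumour. Replicate 1 was thus close to the Smo tumours and replicate 3 above all other arrays. The NG-Ptch call was sensitive to single arrays: leaving out NG-Smo replicate 1, 2 or 3 or any 1 NG-Ptch array lost it, and over all alternatives its change was -2.14 to -1.68 with adjusted p-values of 0.00119 to 0.118. The GFD call was lost without GFD-Ptch replicate 2 (adjusted p = 0.0517). The genes closest to Foxd1 over 18 arrays were Nav3 (r = 0.908), Slc39a2 (r = 0.904) and Olfr988 (r = 0.876).

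GFD-Smo and GFD-Ptch tumours differed in 7 of the 42 members (16.7%), a share near the 15.6% of all genes that passed in this comparison. Foxa2 and Foxo1 were higher in GFD-Smo, and Foxd1, Foxd2, Foxj2, Foxo3 and Foxp1 were lower, against 8.5% of all genes higher and 7.1% lower. At an unadjusted p under 0.05 there were 13 members, against 33.3% of all genes. This comparison rests on 2 GFD-Ptch arrays, and without one or the other of them 6 of the 7 calls were lost in turn, the exception being Foxa2. Across the 42 members the median change was -0.15, against -0.06 over all genes. Olfactory receptor genes, where no signal is expected, had a median change of -0.11 and only 7.19% of them were above 0. The 14 dim members had a median of -0.105 and the 28 above the bound -0.18. With dim genes left out, the median over all genes was 0.002. The source of the members' shift was not tested.

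**Figure D3:**
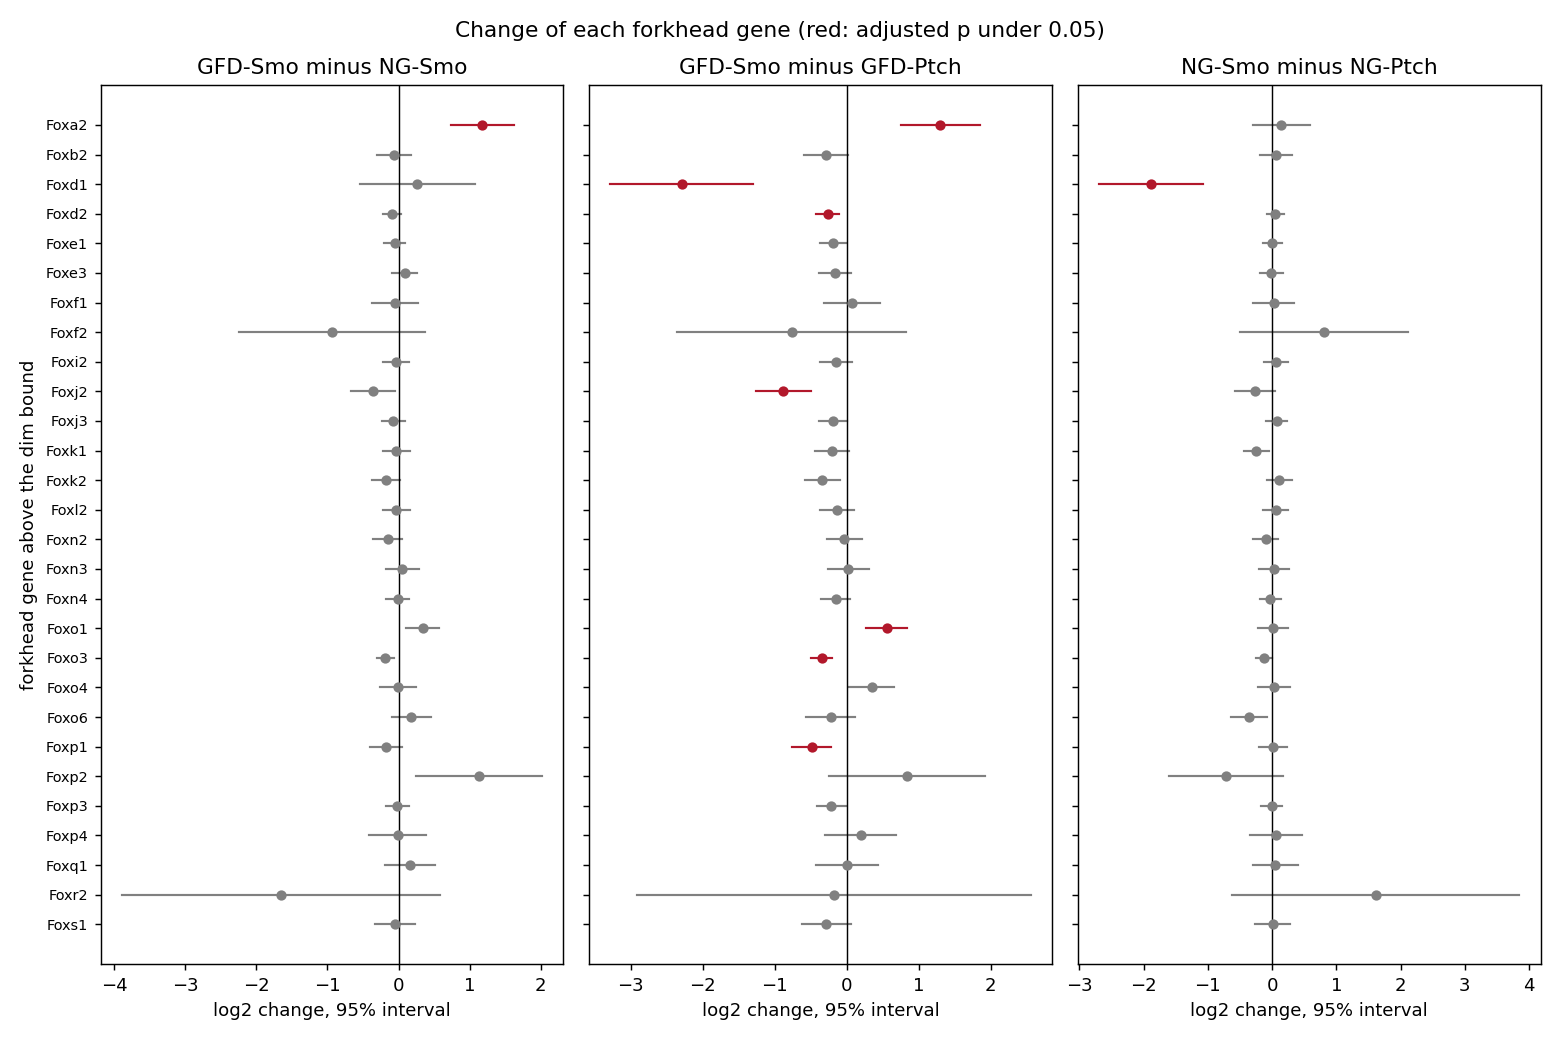
Log2 change with its 95% interval for the 28 forkhead genes above the dim bound in 3 comparisons, with genes at an adjusted p under 0.05 in red. Foxa2 passed in GFD-Smo minus NG-Smo, 7 genes passed in GFD-Smo minus GFD-Ptch, and Foxd1 passed in NG-Smo minus NG-Ptch.

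The FoxO genes, whose proteins are held out of the nucleus by AKT, did not move together. Foxo1, the member best known for insulin-controlled metabolism, was 8.77, 8.96, 8.88 and 8.79 in GFD-Smo tumours, against 8.48 and 8.11 in GFD-Ptch tumours. It rose 1.47-fold (log2 change 0.56, SE 0.14, limma adjusted p = 0.012), and the call was lost without GFD-Ptch replicate 2 (adjusted p = 0.243) and with the gender label in the fit. In GFD-Smo tumours Foxo1 was also 0.34 higher than in NG-Smo tumours (8.26, 8.68, 8.59 and 8.52), without passing (adjusted p = 0.0957), although these groups did not overlap.

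Foxo3, a FoxO protein that arrests the cell cycle and keeps neural stem cells quiescent, went the other way. It was 9.48, 9.61, 9.59 and 9.66 in GFD-Smo tumours, against 10.01 and 9.85 in GFD-Ptch tumours. Foxo3 fell by 0.35 on the log2 scale in GFD-Smo relative to GFD-Ptch tumours (SE 0.07, limma adjusted p = 0.00363), a small but tight difference that was lost without GFD-Ptch replicate 1 (adjusted p = 0.0664). The 4 NG-Smo arrays lay between at 9.71 to 9.81, the NG-Ptch arrays at 9.88 to 9.92 and the GFI-Ptch arrays at 9.70 to 9.91, and the GFD-Smo arrays were below all of these.

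Foxo4, an X-linked FoxO gene, was 8.64 to 8.81 in GFD-Smo, 8.52 to 8.94 in NG-Smo, 8.44 to 8.98 in GFI-Ptch, 8.20 and 8.54 in GFD-Ptch and 8.60 to 8.84 in NG-Ptch tumours, and passed in no comparison. Foxo6, the FoxO gene of the brain, was 8.46 to 8.91 in NG-Smo and 8.75 to 9.42 in NG-Ptch tumours, a difference of -0.36 (adjusted p = 0.272).

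The kinases, adaptors and ligases that set FoxO activity were described by a list of 20 genes, of which 18 were measured. In GFD-Smo relative to NG-Smo tumours 1 rose and 0 fell, where 5.31% of all genes passed. In GFD-Smo relative to GFD-Ptch tumours 2 rose and 0 fell, where 15.6% passed. The median change over the list was -0.02 and -0.01 in these comparisons, against -0.01 and -0.06 over all genes. The gene behind both counts was Sgk3, a kinase related to AKT that phosphorylates FoxO proteins. Its log2 level was 9.26, 9.30, 9.31 and 9.24 in GFD-Smo, 7.88, 7.88, 8.08 and 7.87 in NG-Smo, 7.28, 7.68, 7.77 and 6.97 in GFI-Ptch, 7.48 and 6.73 in GFD-Ptch and 7.99, 8.56, 8.46 and 8.14 in NG-Ptch tumours. Sgk3 thus stood alone at the top in GFD-Smo, as Foxa2 did. It rose by 1.35 relative to NG-Smo (limma adjusted p = 0.000307) and by 2.17 relative to GFD-Ptch tumours (adjusted p = 2.2e-05), and its GFD minus NG change differed between Smo and Ptch tumours by 2.53 (adjusted p = 0.00027). Its relative Sgk1 rose by 0.57 against GFD-Ptch tumours (adjusted p = 0.0358).

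Of 28 known FoxO target genes 27 were measured, and none passed between subtypes within the Ptch or the Smo tumours or between NG-Smo and NG-Ptch tumours. In GFD-Smo relative to GFD-Ptch tumours 4 rose and 3 fell, where 15.6% of all genes passed, with a median change of 0.10 over the list and -0.06 over all genes. Those that rose were Pdk4, which turns off glucose oxidation (by 1.24, limma adjusted p = 0.00662), the thioredoxin inhibitor Txnip (by 0.82), the peroxide-removing Prdx3 (by 0.74) and Cat (by 0.51). Those that fell were the hypoxia-linked Bnip3 (by 0.93), the stress gene Gadd45a (by 0.86) and the cell cycle inhibitor Cdkn1b (by 0.49, adjusted p = 0.00897). Prdx3, Cat and Cdkn1b were named after their values were seen. Targets of the same factors thus went both ways, and their array means over the list lay within 8.95 to 9.13 throughout.

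Foxj2 and Foxp1 lie on chromosome 6, as do Foxp2 and the dim Foxi3. The lower levels of Foxj2 and Foxp1 in GFD-Smo came with a shift in the median over that chromosome's genes. Over 682 chromosome 6 genes above the dim bound, the median deviation relative to all genes of the array was -0.22, -0.22, -0.22 and -0.25 in GFD-Smo tumours, against 0.23 and 0.20 in GFD-Ptch tumours. It was -0.04 to 0.02 in NG-Smo tumours, 0.00 to 0.20 in GFI-Ptch and 0.02 to 0.13 in NG-Ptch tumours. In GFD-Smo minus GFD-Ptch the chromosome 6 median was -0.44, while the other 19 chromosomes ran from -0.03 to 0.13, and 53.1% of the chromosome 6 genes passed the test. Position along the chromosome was not examined, and DNA copy number was not measured here.

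Foxj2, an activator with a broad tissue range, was 9.62, 9.75, 9.59 and 9.82 in GFD-Smo tumours, against 10.85 and 10.29 in GFD-Ptch tumours. It fell by 0.88 on the log2 scale (SE 0.18, limma adjusted p = 0.00424). Foxp1, a repressor in neurons and B cells, was 9.89, 9.94, 9.79 and 9.89 in GFD-Smo, against 10.62 and 10.10 in GFD-Ptch tumours, and fell by 0.48 (SE 0.13, limma adjusted p = 0.02). Both calls were lost without GFD-Ptch replicate 1, the array with the highest level of either gene. The Foxp1 call was lost in 5 of 29 alternatives, which included median centring, the gender label in the fit and the replicate numbers as a block.

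When each array's chromosome medians were subtracted, an alternative added after the data were seen, the Foxp1 change was -0.04 (adjusted p = 0.832) and the Foxj2 change -0.44 (adjusted p = 0.0731). Foxa2, Foxd1, Foxd2, Foxo1 and Foxo3 passed under the same centring, as did the dim Foxi3. Within groups, NG-Ptch replicate 4 and GFI-Ptch replicate 3 had the highest chromosome 6 medians of their groups (0.13 and 0.20) and also the highest Foxj2 levels (10.73 and 10.42). GFD-Ptch replicate 1 was likewise the higher of its pair in both (0.23 and 10.85). The Smo groups went the other way. NG-Smo replicate 1 had the highest median (0.02) and the lowest Foxj2 (9.82). GFD-Smo replicate 4 had the lowest median (-0.25) and the highest Foxj2 (9.82). Among the FoxO targets that changed, Cdkn1b, Gadd45a and Pdk4 are on chromosome 6 too.

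**Figure D4:**
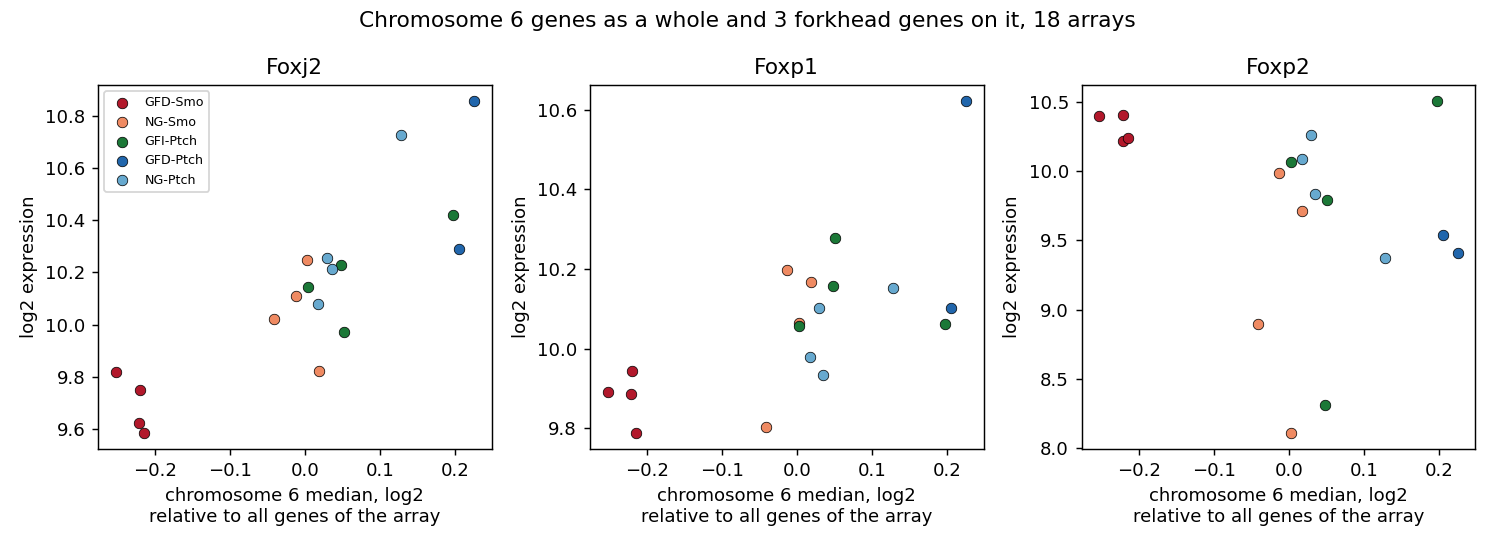
Log2 expression of Foxj2, Foxp1 and Foxp2 (vertical axes) against the median log2 deviation of 682 chromosome 6 genes relative to all genes of the array (horizontal axes), 1 point per array, coloured by group. The GFD-Smo arrays lie at -0.25 to -0.22 and the GFD-Ptch arrays at 0.20 and 0.23, and Foxp2 is high in GFD-Smo although the chromosome 6 median is low there.

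Foxp2, a repressor of Purkinje cells and deep cerebellar neurons, whose human counterpart is mutated in an inherited speech disorder, went against its chromosome's median. It was 10.40, 10.21, 10.24 and 10.40 in GFD-Smo tumours, against 9.71, 9.99, 8.89 and 8.11 in NG-Smo tumours. These groups did not overlap, yet the NG-Smo arrays spread over nearly 2 log2 units. The change of 1.14 (SE 0.42, 95% interval 0.25 to 2.02) did not pass (limma adjusted p = 0.153). It passed with array weights and without the transplanted tumour, and over all alternatives adjusted p ran from 0.0392 to 0.354. Foxp2 was 9.79, 10.07, 10.50 and 8.31 in GFI-Ptch, 9.41 and 9.54 in GFD-Ptch and 9.84, 10.26, 9.37 and 10.09 in NG-Ptch tumours.

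Purkinje cell genes had array means of 9.13, 8.92, 9.24 and 7.71 in GFD-Smo and of 7.56 to 8.56 in NG-Smo tumours. In GFD-Smo replicate 4 the Purkinje mean was within the NG-Smo range while Foxp2 was 10.40, as high as in replicate 1. Foxp4, the third neural FoxP gene, was 9.05 to 9.28 in GFD-Smo and 8.85 to 9.48 in NG-Smo tumours and passed in no comparison. Foxp3, the master regulator of regulatory T cells, was 7.35 to 7.71 over all arrays, near the dim bound. The lymphocyte list beside it, 9 of whose 12 measured genes were dim, had array means of 6.42 to 6.78.

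Foxr2 showed the largest single-array departures of the family. In humans, FOXR2 is silent in most tissues and is activated in a class of embryonal brain tumours. Its log2 level here was 12.02 in NG-Smo replicate 1 and 9.92 in the transplanted GFI-Ptch tumour. It was 6.84 in NG-Smo replicate 4 and 6.10 to 6.41 in the other 15 arrays, under the dim bound.

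Because 1 array of a group carried the signal, no comparison of groups passed. Foxr2 was higher by 1.62 in NG-Smo than in NG-Ptch tumours (SE 1.05, limma adjusted p = 0.696), and without NG-Smo replicate 1 this value was 0.21. In GFI-Ptch relative to NG-Ptch tumours it was higher by 1.01 (adjusted p = 0.814), and without the transplanted tumour by 0.10. The 6 genes measured on either side of it on the X chromosome did not share the jump. Mageh1, the neighbour on one side, was 8.20 in NG-Smo replicate 1, against 7.88 to 8.14 in the other NG-Smo arrays. Rragb, the neighbour on the other side, was 9.36 there, against 9.03 to 9.34.

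The X chromosome as a whole had a median deviation of 0.05 in NG-Smo replicate 1 and of 0.23 in the transplanted tumour. In the transplanted tumour Rragb (9.92), Mageh1 (8.35), Ubqln2 (10.57) and Klf8 (7.35) were the highest of the GFI-Ptch tumours and Usp51 (8.02) and Gpr143 (5.55) the lowest, by differences far below that of Foxr2. The Foxr2 window shown above had the fewest CG dinucleotides of the 33 member windows, and 31.4% of all windows had as many or fewer.

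**Figure D5:**
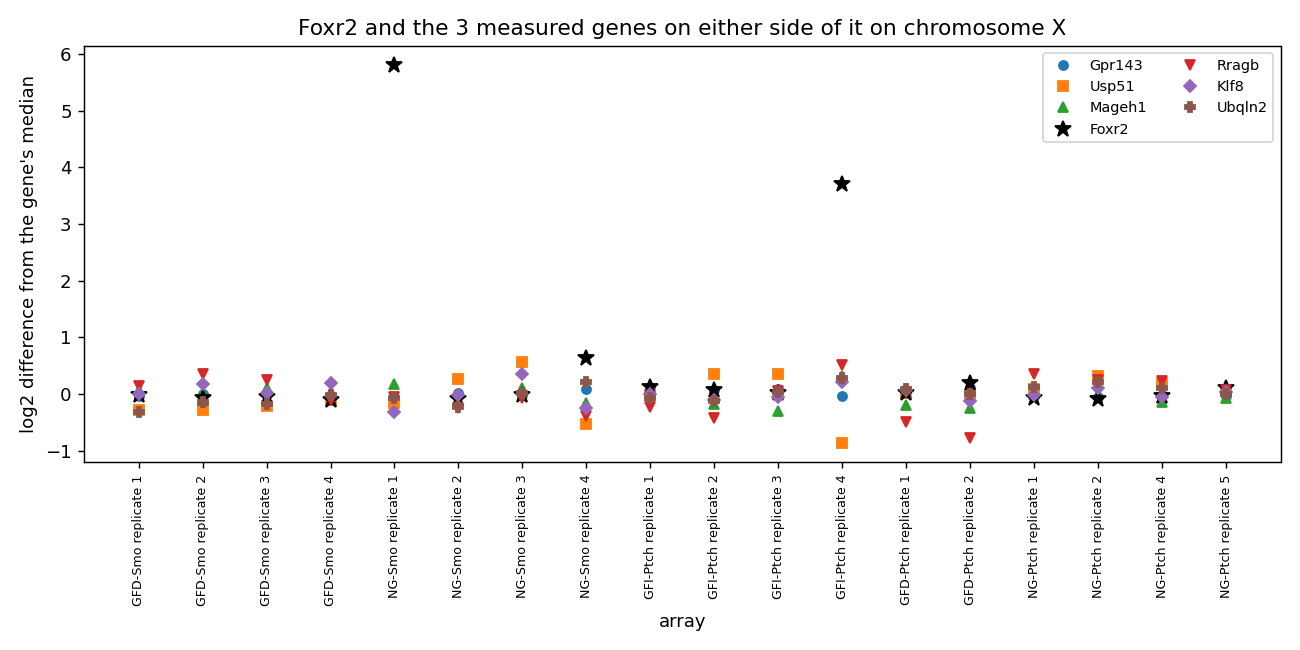
Log2 difference of Foxr2 (stars) and of the 3 measured genes on either side of it on chromosome X from each gene's own median, by array. Foxr2 stands high in NG-Smo replicate 1 and in GFI-Ptch replicate 4, and its neighbours stay within 1 log2 unit of their medians.

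Foxf2, which brain pericytes need to form the blood-brain barrier, spread widely within groups. It was 8.61, 8.30, 7.94 and 8.58 in GFD-Smo tumours and 7.93, 9.45, 10.28 and 9.51 in NG-Smo tumours. It was 7.54, 8.20, 7.31 and 6.80 in GFI-Ptch, 10.41 and 7.83 in GFD-Ptch and 7.08, 9.22, 9.62 and 8.02 in NG-Ptch tumours. The pair of GFD-Ptch tumours alone thus spanned more than 2 log2 units, and the lowest level of all was in the transplanted tumour. Of the comparisons fitted the largest difference, -1.66 in GFI-Ptch relative to GFD-Ptch tumours (SE 0.75), did not pass (limma adjusted p = 0.487).

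Pericyte genes had array means of 8.50 to 8.74 in GFD-Smo, the highest group, where Foxf2 was intermediate, and 7.93 to 8.58 elsewhere. In each group of 4 arrays, the array with the highest pericyte mean also had the highest Foxf2. These were GFD-Smo replicate 1 (pericyte mean 8.74), NG-Smo replicate 3 (8.58), GFI-Ptch replicate 2 (8.23) and NG-Ptch replicate 4 (8.45). The transplanted tumour had the lowest of both among all arrays. The GFD-Ptch replicates had nearly equal pericyte means of 8.26 and 8.27 beside Foxf2 levels of 10.41 and 7.83. The part of pericyte content in Foxf2 was not tested. Foxq1, known for its part in hair and stomach epithelium and a neighbour of Foxf2 on chromosome 13, ranged from 7.34 to 8.38, and Foxf1, a gene of visceral mesenchyme on chromosome 8, from 6.88 to 7.74. Over the 18 arrays Foxf2 correlated with Foxq1 at r = 0.750, and at 0.804 after group means were removed, across points that share arrays and platform. NG-Ptch replicate 4 was high for all of Foxf2 (9.62), Foxq1 (8.38) and Foxf1 (7.74), and the transplanted tumour was lowest for all of them (6.80, 7.34 and 6.88).

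Single arrays held the ends of the range for several of the 28 members above the bound. The transplanted tumour was lowest for Foxf1, Foxf2, Foxl2, Foxn3 and Foxq1 and highest for Foxo4 and Foxp4. GFD-Ptch replicate 2 was likewise at an end for 7 members (highest for 5, lowest for 2), and GFD-Ptch replicate 1 was highest for 6. In the transplanted tumour the median deviation was -0.21 for chromosome 13, which holds Foxf2, Foxq1 and the dim meningeal gene Foxc1, and 0.23 for chromosome X, which holds Foxo4. Chromosome 17 had a median of 0.22 there, where Foxp4 was 9.75, the highest of all arrays. Not all members on these chromosomes followed. Foxn2 on chromosome 17 was 9.99 there, level with GFI-Ptch replicate 3 (9.99). Foxp3 on chromosome X was 7.35 there, the lowest of its group (7.49 to 7.71 in the other GFI-Ptch arrays). NG-Smo replicates 2 and 3 had chromosome 17 medians of 0.14 and 0.24, against -0.06 and -0.04 in replicates 1 and 4. The chromosome 17 gene Foxn2 was 10.20 and 10.21 in those replicates, against 9.92 and 9.75 in the others, and Foxp4 was 9.48 and 9.27, against 8.85 and 9.02. Foxd1, also on chromosome 13, was 9.06 in the transplanted tumour and not at an end of its group. The part of these chromosome shifts in single values was not tested.

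The forkhead genes with broad roles changed little. Foxk1 and Foxk2, repressors of autophagy genes, were 9.34 to 9.98 and 10.55 to 11.11 over all arrays. Foxk2 was 10.62 to 10.78 in GFD-Smo tumours, against 10.92 and 11.11 in GFD-Ptch tumours, a change of -0.34 that did not pass (limma adjusted p = 0.0552). Foxj3 was 10.10 to 10.47, and Foxn3, a repressor linked to the DNA damage checkpoint, was 9.88 to 10.59 with its low end in the transplanted tumour. Its lowest group mean was in GFI-Ptch tumours (10.28, against 10.40 to 10.49 in the other groups), as was that of its second probe set (9.42, against 9.46 to 9.57). Foxd2, a gene of embryonic mesenchyme, fell in GFD-Smo relative to GFD-Ptch tumours, at 7.67, 7.51, 7.64 and 7.57 against 7.88 and 7.84. Its change of -0.26 (limma adjusted p = 0.0263) was lost in 6 of 29 alternatives, median centring among them, and stood against an olfactory receptor median of -0.11.

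Several members known for other organs were above the bound: Foxe1 (thyroid), Foxe3 (lens), Foxl2 (ovary), Foxb2, Foxi2, Foxs1 and Foxn4, a gene of retinal progenitors. None of these 7 passed in any comparison, and each ranged by 0.32 to 0.72 over the 18 arrays.

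Among the Ptch subtypes no forkhead gene passed. In GFD-Ptch minus NG-Ptch 0 of 42 members passed, against 0.01% of all genes, in GFI-Ptch minus NG-Ptch 0 of 42, against 0% of all genes, and in GFI-Ptch minus GFD-Ptch 0 of 42, against 0.00502%. At an unadjusted p under 0.05 the counts were 5, 2 and 4 members, against 16.9%, 8.53% and 9.79% of all genes. Without the transplanted tumour the counts were 9, 4 and 2 members. Over all 19938 genes they were then 4301, 2649 and 2170, against 3375, 1701 and 1952 with that tumour. Foxk2 was 10.92 and 11.11 in GFD-Ptch, against 10.63 to 10.91 in NG-Ptch tumours (log2 change 0.28, adjusted p = 0.261). Foxd2 was 7.69 to 7.92 in GFI-Ptch, against 7.58 to 7.68 in NG-Ptch tumours (log2 change 0.18, adjusted p = 0.386). Foxd1 was 9.50 and 9.56 in GFD-Ptch tumours, above all NG-Ptch arrays (log2 change 0.67, 95% interval -0.32 to 1.66, adjusted p = 0.447). The intervals of these small groups leave room for differences of such sizes.

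The test of whether the GFD minus NG change differed between Smo and Ptch tumours called 0 of the 42 members, against 3.81% of all genes. At an unadjusted p under 0.05 it reached 10 members (23.8%), against 20.1% of all genes. The largest in size was Foxr2 at -1.79 (SE 1.66, limma adjusted p = 0.545), carried by the single NG-Smo array, followed among positive values by Foxp2 at 1.55 (SE 0.66, adjusted p = 0.206).

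The 14 dim members were Foxa1 and Foxa3 (gut and liver), Foxb1, Foxc1 and Foxc2 (meninges and vessels), Foxd3 (neural crest), Foxd4, Foxh1 (a partner of Nodal signalling), Foxi1 (inner ear and kidney), Foxi3, Foxj1, Foxl1, Foxn1 (thymus) and Foxr1. Each ranged by 0.28 to 0.97 over the arrays, and none passed in any comparison. In GFD-Ptch minus NG-Ptch all 14 lay above 0, with a median of 0.13, as did 91.8% of olfactory receptor genes. Foxj1, the regulator of motile cilia, was 6.69 to 7.20. Of 30 motile cilia genes listed with it, 21 were dim, and 1 rose (Rsph9, by 0.88) and 1 fell (Spag6, by 0.43) in GFD-Smo relative to GFD-Ptch tumours, where 15.6% of all genes passed.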

How the data were processed

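Total RNA was extracted with Trizol and biotinylated cDNA was hybridised, 1 array per tumour, per the labels' protocols. The authors deposited log2 values for 35556 probe sets on 18 arrays; that the scale is log2 was taken from the values (4.22 to 14.3). Partek 6.6 is named per the submitters' processing notes, and its background and normalization settings are not given in the sources used here. Array medians were 7.74 to 7.87. GEO's platform annotation gave 1 symbol to 21789 probe sets, several to 1621 (left out), and the probe set with the highest mean stood for each of 19938 genes. The 5 groups were fitted together over all genes with limma 3.58.1 in R 4.3.3 (lmFit, eBayes), p-values were Benjamini-Hochberg adjusted over all genes within each of 7 contrasts, and 0.05 was the threshold. The fit was tested on simulated data. Values per array were given for members above the dim bound that passed a contrast or were among the 12 with the largest spread of group means, with up to 4 genes of each described list, the 3 most similar genes of each member that passed, and the label checks. The neighbours of Foxr2, the FoxO targets Prdx3, Cat and Cdkn1b and values of a few other members were added after their values were seen. The alternatives changed normalization, gene filter, weights, groups fitted, covariates and arrays. Members and gene lists were chosen with earlier results of these data known. The number of arrays limits precision, and no depth exists. The forkhead domain was not analysed here. Promoter windows are RefSeq's. Chromosomes are RefSeq's by gene identifier, and the neighbours of Foxr2 were found by symbol.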

Additional observations from a re-analysis of the deposited data

Results flagged for a closer look

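Among the 28 members above the dim bound, 8 of 112 sets of 4 replicates held an array far from the other 3, where chance gives about 1 in 20. Foxr2 was flagged in NG-Smo replicate 1 (12.02, the next array at 6.84) and in the transplanted GFI-Ptch tumour (9.92, the next at 6.34). NG-Smo replicate 4 was high for Foxb2 (8.26, the next at 7.93) and for Foxp3 (7.63, the next at 7.39). The median over olfactory receptor genes was also higher in that array, at 5.548 against 5.434 to 5.475 in the other NG-Smo arrays. The part of this background in the flags was not tested. NG-Ptch replicate 4 was high for Foxk1 (9.98, the next at 9.69) and for Foxo1 (8.81, the next at 8.42). Foxo3 was high in GFI-Ptch replicate 3 (9.91, the next at 9.71), and Foxe1 was low in the transplanted tumour (8.25, the next at 8.38).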

How the results depend on the processing

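Over 29 alternatives for each of 16 gene results, 434 values kept direction and side of the threshold, 25 lost the call, 4 gained it and 1 changed sign: Foxr2 in GFI-Ptch minus NG-Ptch was -0.31 with the gender label in the fit. Both Foxa2 calls held in all 29. The gender label itself goes against the Y-chromosome genes in GFD-Smo replicates 2 and 3 and in the transplanted tumour. It reads ND in NG-Ptch replicates 2, 4 and 5. This limits every result with that label in the fit, among them the Foxr2 sign change and the lost Foxo1 and Foxp1 calls. Array weights were lowest for the transplanted tumour (0.175) and NG-Smo replicate 4 (0.264). Group sizes of 2 to 4 arrays and unknown normalization settings limit every comparison, and the cause of the changes below was not tested.

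Leaving out 1 array gave 0 members in each Ptch comparison, 1 to 2 in GFD-Smo minus NG-Smo, 0 to 1 in NG-Smo minus NG-Ptch, 3 to 9 in GFD-Smo minus GFD-Ptch and 0 to 2 in the difference between Smo and Ptch tumours. Over all genes it gave 1 to 144 in GFD-Ptch minus NG-Ptch, 0 to 8 in GFI-Ptch minus NG-Ptch, 1 to 47 in GFI-Ptch minus GFD-Ptch, 643 to 1553 in GFD-Smo minus NG-Smo, 75 to 384 in NG-Smo minus NG-Ptch, 997 to 4376 in GFD-Smo minus GFD-Ptch and 248 to 1285 in the difference.

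Members called moved with array weights to 1 in GFI-Ptch minus NG-Ptch, 4 in GFD-Smo minus NG-Smo, 13 in GFD-Smo minus GFD-Ptch and 1 in the difference. With only the compared groups fitted they were 14 in GFD-Smo minus GFD-Ptch and 1 in the difference, which had 2 with quantile normalization and 1 with dim genes left out. With array weights and with only the compared groups, the counts over all genes, given next, rose in these comparisons too. The member counts are therefore not read as a result about the family.

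Over all genes, GFD-Ptch minus NG-Ptch called 2, against 6 with quantile normalization, 4 with median centring, 565 with array weights, 245 with only its groups, 7 with an intensity trend and 0 with the gender label or the Y-linked covariate. GFI-Ptch minus NG-Ptch called 0, against 12 with median centring, 4 without dim genes, 180 with weights, 1 with only its groups and 2 with the gender label. GFI-Ptch minus GFD-Ptch called 1, against 4 with quantile normalization, 26 with weights, 2 with the trend, 2 with chromosome-median centring (chosen after seeing the data) and 0 with only its groups, the gender label or the Y-linked covariate. GFD-Smo minus NG-Smo called 1058, against 1740 with weights. NG-Smo minus NG-Ptch called 208, against 419 with weights, 42 with only its groups and 96 with the gender label. GFD-Smo minus GFD-Ptch called 3110, against 5906 with weights and 6709 with only its groups. The difference called 759, against 1484 with weights, 1293 with only its groups, 188 with the gender label and 159 with the Y-linked covariate.

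The labels do not say what the titles' replicate numbers mark. In deviations from group means, 3 of 29 same-number pairs correlated over 0.1 (median -0.03), against 27 of 99 different-number pairs (median 0.02). With so few arrays per group this cannot exclude a shared litter or day. With the numbers as a replicate block, 0 members passed in NG-Smo minus NG-Ptch, and over all genes 34 passed there, 0 in GFD-Ptch minus NG-Ptch and in GFI-Ptch minus GFD-Ptch, and 417 in the difference.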
